A study of Homo sapiens with 21 samples.

Results

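Histone H3 acetylated at lysine 27 (H3K27ac) was compared in A375 cells between 1 library of the hairpin shH2 and 2 libraries of the hairpin shNTC, 3 of the 21 samples of a series on 4 human melanoma cell lines. A375 is an established line from a human melanoma. The labels name no target for shH2. The series states that HOXD13 was silenced or overexpressed, and shNTC is read here as the non-targeting control. Culture lasted 72 h, and 1 µg/ml of doxycycline was added to some cultures to switch on the constructs; whether these 3 were among them is not stated. Both ChIP-seq and CUT&Tag were used in the series, and the assay behind these 3 libraries is not named. Nothing says that the shNTC replicates were separate cultures, so their spread may be technical. The second hairpin, shH3, was left out. Acetylated regions were taken from the authors' region lists for chromosomes 1 to 22 and X. Of 65337 regions present in both shNTC lists, those without any overlap in the shH2 list were called lost (34096) and the others kept (31241). Of 43634 shH2 regions, the 1915 that overlapped neither shNTC list were called gained. Since shH2 has 1 library, no difference between the hairpins could be tested.

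H3K27ac marks active promoters and enhancers: acetyltransferases such as p300 and CBP deposit it, and bromodomain proteins bind acetylated histones near transcribing polymerase. HOXD13 is a homeobox transcription factor that patterns the distal limb and digits. The gene groups described here are those named in the study's title, angiogenesis and immune evasion, with melanoma state, limb, HOX, MAPK, matrix and interferon genes and markers of other cell types.

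Promoter sequences are shown for 7 genes picked from the starts named below, as the 300-base windows around the start that RefSeq gives for GRCh38.p14. CHAC1, ASNS and IARS1 were among the 4 strongest acetylated starts that were lost by summit, and CARS1 and CEBPG had the lowest levels in shH2 relative to shNTC. Capitals mark TGATGNAA, searched on both strands, so that TTGCATCA is a match on the other strand. These are the letters of the composite element bound by ATF4 with C/EBP proteins in genes that answer to amino acid shortage.
These windows lie at chr15:40953221-40953520 (+ strand) for CHAC1, chr7:97872359-97872658 (- strand) for ASNS, chr11:3057374-3057673 (- strand) for CARS1, chr9:92293648-92293947 (- strand) for IARS1 and chr19:33373459-33373758 (+ strand) for CEBPG.
CHAC1: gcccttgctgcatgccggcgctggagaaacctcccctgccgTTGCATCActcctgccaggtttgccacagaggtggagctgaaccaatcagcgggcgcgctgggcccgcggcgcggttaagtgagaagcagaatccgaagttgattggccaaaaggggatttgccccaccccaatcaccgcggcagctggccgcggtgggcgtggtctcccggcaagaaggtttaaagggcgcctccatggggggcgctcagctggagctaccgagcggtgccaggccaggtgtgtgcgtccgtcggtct
ASNS: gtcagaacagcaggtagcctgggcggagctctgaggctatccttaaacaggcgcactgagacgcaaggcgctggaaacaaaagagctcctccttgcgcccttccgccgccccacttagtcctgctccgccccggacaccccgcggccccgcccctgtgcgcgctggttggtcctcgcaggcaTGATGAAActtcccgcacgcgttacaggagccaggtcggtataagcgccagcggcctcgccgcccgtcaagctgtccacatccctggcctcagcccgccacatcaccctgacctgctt
CARS1: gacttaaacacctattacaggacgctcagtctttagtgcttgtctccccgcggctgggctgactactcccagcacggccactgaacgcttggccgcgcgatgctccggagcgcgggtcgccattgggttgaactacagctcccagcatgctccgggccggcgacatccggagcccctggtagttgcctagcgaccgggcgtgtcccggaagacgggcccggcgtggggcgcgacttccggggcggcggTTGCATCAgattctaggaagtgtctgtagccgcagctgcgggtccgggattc
IARS1: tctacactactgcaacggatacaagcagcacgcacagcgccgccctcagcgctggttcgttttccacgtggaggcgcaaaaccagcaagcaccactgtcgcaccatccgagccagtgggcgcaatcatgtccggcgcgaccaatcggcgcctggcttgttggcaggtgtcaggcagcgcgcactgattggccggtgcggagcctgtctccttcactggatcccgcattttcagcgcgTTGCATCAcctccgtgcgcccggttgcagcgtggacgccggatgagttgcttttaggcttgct
CEBPG: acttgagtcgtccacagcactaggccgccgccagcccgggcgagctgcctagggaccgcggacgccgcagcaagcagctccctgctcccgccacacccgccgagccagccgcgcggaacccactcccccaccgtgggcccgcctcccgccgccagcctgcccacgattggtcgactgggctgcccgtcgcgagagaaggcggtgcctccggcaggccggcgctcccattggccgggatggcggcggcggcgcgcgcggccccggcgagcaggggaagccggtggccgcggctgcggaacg

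The match began at position -209 relative to the start in CHAC1, -2 in CARS1 and -13 in IARS1, on the other strand in all of them. In ASNS it began at -68 and read TGATGAAA on the gene's own strand. CEBPG held none in this window. Of all 15812 promoters, 401 (2.54%) held the letters, against 39 of the 2174 (1.79%) whose start was lost by summit and 85 of the 5870 (1.45%) whose start was kept. Lost and kept starts thus both lay below the share of all promoters. The search for these letters was added after the named starts had been seen. The letters were in 3 of the 10 strongest starts lost by summit. Among starts with shNTC levels of at least 20, they were in 1 of the 10 lowest in shH2 relative to shNTC. They were in 0 of the 10 highest. The printed CHAC1, ASNS, IARS1 and CARS1 are those holders, so the printed promoters do not show how common the letters were. TTTATTG, a core that HOX13 proteins bind, was in 2.83% of all promoters, 1.56% of the lost and 2.33% of the kept, and in none of the promoters printed here. A match is a description of letters and not of binding. For contrast, 2 promoters without the letters follow, of PLXNA3 (chrX:154458031-154458330 (+ strand)), also among those 4, and of RPS19 (chr19:41860005-41860304 (+ strand)), a ribosomal protein gene whose start stood higher in shH2 than in both shNTC libraries.
PLXNA3: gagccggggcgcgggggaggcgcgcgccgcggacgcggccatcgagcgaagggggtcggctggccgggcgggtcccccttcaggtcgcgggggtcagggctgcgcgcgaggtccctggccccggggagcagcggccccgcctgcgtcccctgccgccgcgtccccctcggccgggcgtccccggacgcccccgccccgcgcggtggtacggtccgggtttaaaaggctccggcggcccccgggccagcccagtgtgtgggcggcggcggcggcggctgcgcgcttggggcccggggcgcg
RPS19: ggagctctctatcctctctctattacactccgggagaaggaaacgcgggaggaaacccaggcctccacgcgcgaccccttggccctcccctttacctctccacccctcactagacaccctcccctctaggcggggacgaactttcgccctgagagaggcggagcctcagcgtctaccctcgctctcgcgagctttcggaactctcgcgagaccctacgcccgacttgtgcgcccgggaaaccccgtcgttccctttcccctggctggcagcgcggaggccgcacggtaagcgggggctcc

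The libraries differed as a whole. The shNTC lists held 85977 and 80242 regions over 103 and 98.4 Mb, and the shH2 list held 43634 over 36.8 Mb, with median widths of 741, 766 and 571 bp. The caller's fold and p-value at each summit together fix the number of fragments piled up there, and this number was recovered for all regions. It is given as a level, the summit pileup divided by the mean pileup expected over the genome in the same library, so that depth cancels. Levels run from 3.59, 3.6 and 3.94, the lowest in each list, to 716 and 622 in shNTC and 233 in shH2. The weakest regions rest on 18 fragments in shNTC and 13 in shH2, and shH2 held 0.72 and 0.747 times the reads of the shNTC libraries, if the narrowest region equals the fragment length in each. Local backgrounds were compared at summits close together, only where both stood above the genome-wide background. Those of both shNTC libraries agreed within 2% at 850 of 1328 such places (64.0%), and those of shH2 and shNTC at 49 of 221 (22.2%) and 49 of 218 (22.5%). The background that the caller used, the depth and the hairpin differ together between shH2 and shNTC and cannot be told apart.

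HOXD13 itself (chromosome 2, 176087487 to 176095944, hg38; start at 176092721) had no region within 1 kb of its start in any of the 3 libraries. Just past the end of the gene, shNTC replicate 1 had a region from 176096564 to 176096902 with a level of 16.5. Replicate 2 had one from 176096603 to 176096924 with a level of 15.8. In shH2 the place held 2 regions, from 176096490 to 176096745 with a level of 6.96 and from 176097332 to 176097664 with a level of 4.84. By level shH2 thus stood below both shNTC libraries, while by the authors' fold over the local background it stood above them, at 4.08 and 3.64 against 2.13 and 2.03. The second shH2 region counts as gained as deposited, and the first also counts as gained at equal length, where the shNTC regions are too weak to be kept. The direction at this place therefore depends on the measure. A hairpin acts on mRNA, so these values do not check the silencing. AXL, a receptor kinase of undifferentiated melanoma, and JUN were acetylated at the start in all 3 libraries, while the pigment genes TYR, TYRP1, DCT and MLANA were not in any. Starts of other cell types were acetylated in both shNTC libraries at 2 of 8 keratinocyte, 2 of 8 T cell, 1 of 6 fibroblast, 2 of 6 endothelial and 2 of 8 hepatocyte genes.

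Of the shared regions 52.2% (95% Wilson interval 51.8 to 52.6) were lost, and 4.39% (4.2 to 4.59) of shH2 regions were gained. Intervals cover counting error only. When each list was reduced to its 43634 strongest regions, 10677 of 37474 shared regions were lost (28.5%, 28 to 29) and 5313 were gained (12.2%, 11.9 to 12.5). Replicates differed less: of shNTC replicate 1 regions 19.6% were absent from replicate 2, and of replicate 2 regions 13.2% were absent from replicate 1, against 61.9 and 59.4% absent from shH2. At equal length these shares were 11.5 and 10.9% between the replicates and 34.8 and 34.7% against shH2. The balance depended on what was held equal. With lists reduced to the same covered length, which kept 11429 and 11657 shNTC regions, 283 regions were lost and 25401 gained.

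Loss followed strength. Shared regions were put in 10 classes of equal size by the lower of both shNTC −log10 q values. As deposited, the lost share fell class by class from 91.4% in the weakest class, with a median level of 4.38, to 1.42% in the strongest, with a median of 27.4. At equal length it fell from 65.5 to 0.774%. Of the lost regions 6721 (19.7%) had at least 2 times the lowest level listed in shH2 in both shNTC libraries, and 122 (0.358%) had at least 5 times that level. Kept regions were lower as well, though a weak one had to reach the shH2 list to be kept. Their median log2 level in shH2 over shNTC was -0.58 (quartiles -0.93 and -0.22), with shH2 below both shNTC libraries at 81.0% of them and above both at 11.1%. In the strongest class the median was -0.94 (quartiles -1.27 and -0.62), while the log2 ratio of both replicates had a median of 0.10. The median was -0.79 for kept regions near a gene start, -0.53 in genes and -0.50 between genes.

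**Figure D1:**
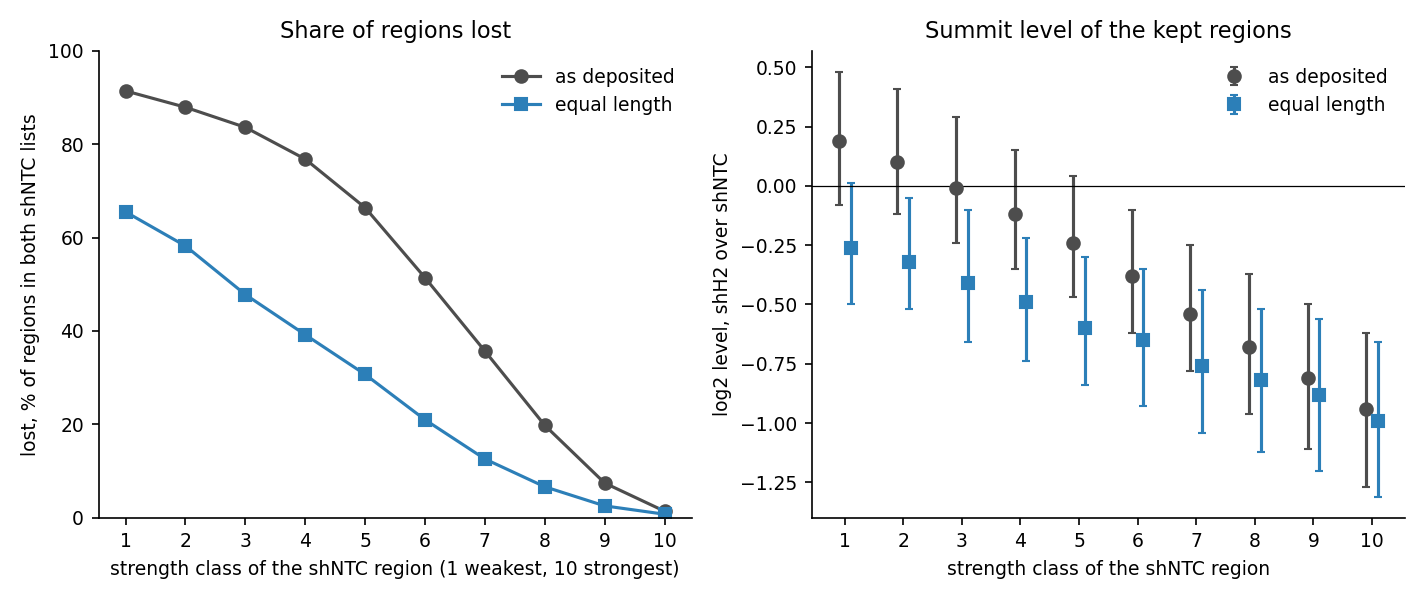
Left, share of shared regions lost in shH2 (y axis, %) by strength class of the shNTC region (x axis); right, log2 summit level in shH2 over shNTC at kept regions, points for medians and bars for quartiles. Circles are lists as deposited, squares lists of equal length; the lost share falls from 91.4 to 1.42% and the median level difference of kept regions reaches -0.94 in the strongest class as deposited.

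Lost regions were less often open than kept ones. By the rule none overlaps an shH2 region; the nearest one was a median of 11927 bp away, within 100 bp for 57 of 34096 and within 10 kb for 45.8%. Near a gene start, meaning a midpoint within 2 kb of it (of either gene end where the start is not in the reference used), lay 13.2% of lost, 22.8% of kept and 3.6% of gained regions. Within classes of equal strength this order turned, with the lost share above the kept one in 9 of 10 classes as deposited and in 10 of 10 at equal length. Gained regions lay mostly between genes (50.9%) or in genes (45.5%). At equal length 21.3% of lost, 25% of kept and 5.93% of gained regions were near a start, and with −log10 q of at least 10 the lost share exceeded the kept one by 0.577 percentage points.

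Other A375 libraries, which the choice of regions did not use, placed the classes further. Open chromatin of A375-GFP, by ATAC-seq, overlapped 54.4% of lost, 94.3% of kept and 68.3% of gained regions. H3K27ac of A375-GFP overlapped 56.8% of lost, 86.5% of kept and 38.7% of gained regions. Tagged HOXD13 (HOXD13-HA) overlapped 6.8% of lost, 15.7% of kept and 7.73% of gained regions. Kept regions were wider, with a median of 1859 bp against 788 bp for lost and 321 bp for gained. Over a fixed 500 bp around the shNTC summit, the HOXD13-HA share was 5.26% (5.02 to 5.5) of lost and 7.69% (7.4 to 7.99) of kept regions, and the ATAC share 50.1 and 85.2%. Lost lay below kept for both in each of the 10 strength classes as deposited. At equal length HOXD13-HA was at 6.07% of lost and 7.35% of kept summits, lower in 8 of 10 classes. The share with HOXD13-HA was thus lower among lost regions. The HOXD13-HA cells carry a tagged protein and are not the shNTC cells.

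**Figure D2:**
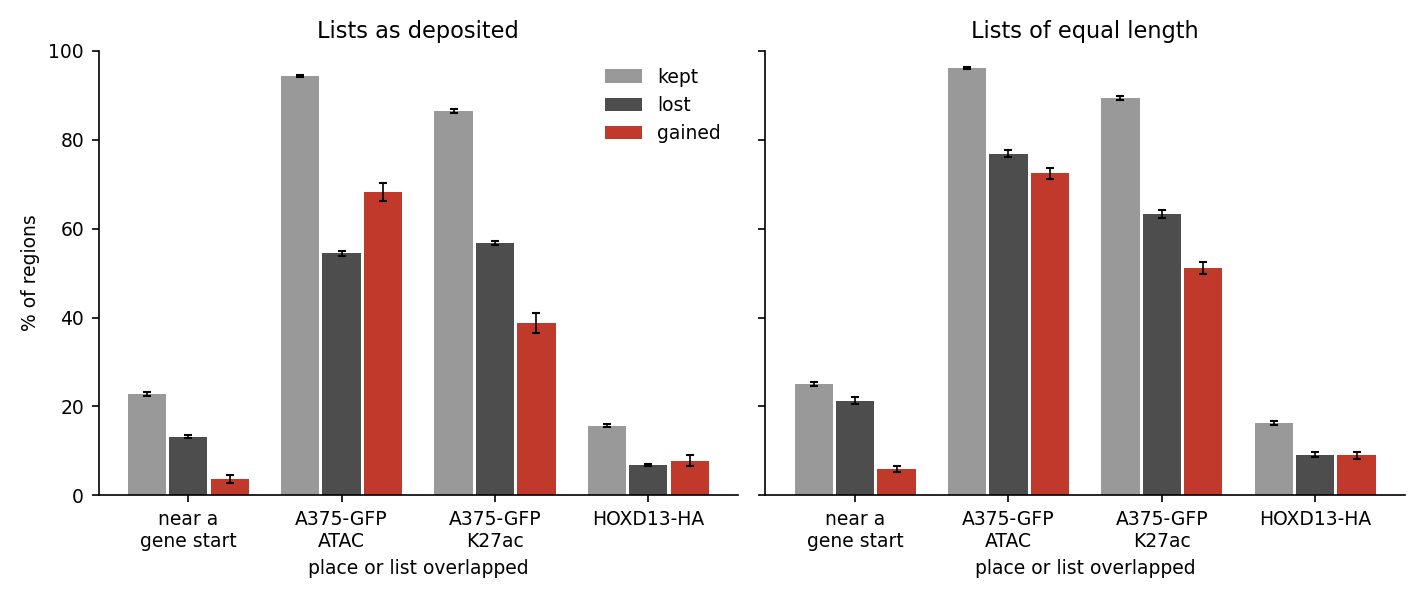
Share of kept, lost and gained regions (y axis, %) near a gene start or overlapping 3 other A375 lists (x axis), with 95% Wilson intervals; left as deposited, right at equal length. Lost bars stand below kept bars in all 4 groups on both sides, for A375-GFP ATAC at 54.4 against 94.3% as deposited and 76.8 against 96.2% at equal length.

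The same 10 lost regions were strongest as deposited and at equal length, with shNTC levels of 31.0 to 46.4 and no shH2 region for at least 2242 bp. The strongest lay 712 bp from the start of FKBP8, a mitochondrial FK506-binding protein, at 18541200 to 18544521 of chromosome 19, with levels of 44.0 and 42.6. The next lay within TMEM156, at 38966240 to 38968515 of chromosome 4, with levels of 46.4 and 42.0. A region in SOD2, mitochondrial superoxide dismutase, at 159692016 to 159693918 of chromosome 6, had levels of 33.5 and 31.8. Regions by MAOA, which breaks down monoamines (33.7 and 33.0), and in ZFP28 (41.6 and 31.0) lay within 2 kb of a start, and one by SAMD12 (37.5 and 31.8) lay 226 bp from an end of the gene. The others were nearest to IL9R, KDM7A, LOC128966717 and TRIM7, at 5678 to 97676 bp from the gene. Widths ran from 283 bp at MAOA to 3322 bp at FKBP8. All 10 were open in A375-GFP, 7 were acetylated there, and none carried HOXD13-HA. Of the 93 lost regions in the strongest class as deposited, 91.4% were open, 72.0% acetylated there and 8.6% carried HOXD13-HA.

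The 10 strongest gained regions as deposited had levels of 13.0 to 20.0 in shH2, from 43 to 66 fragments, below the strongest lost regions. All 10 were open in A375-GFP and none carried HOXD13-HA. The first lay 9530 bp from APCS, serum amyloid P, at 159597540 to 159599250 of chromosome 1, with a level of 20.0. The second lay 144359 bp from CCND1, cyclin D1, at 69496357 to 69497237 of chromosome 11, with 19.7. Others lay in RIN2 (14.2), HPSE2 (15.7), DNM3 (14.2) and PEPD (14.8), or were nearest to AFDN, ATP23, FRMD4A and TCF4 at 65832 to 197405 bp. At equal length the strongest lay in AK5, an adenylate kinase, with a level of 23.3, and near TRABD2B, which degrades Wnt proteins, with 18.8. PPP1R12A, the myosin phosphatase subunit, held one of 17.3. The regions by AK5, TRABD2B and PPP1R12A did not count as gained as deposited, because a full shNTC list held an overlapping region.

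Some genes lost every shared region. At equal length 13613 genes had a shared region in the gene or within 10 kb, and 1802 of these had no kept one. Counted gene by gene, 28.1% of such regions were lost, and a gene with few regions can lose all of them more easily. ANKRD30A had most, 6 lost regions, followed by PCGF2, a Polycomb ring finger protein, and PDK2, a pyruvate dehydrogenase kinase, with 5 each. CKAP2L, FHIP1B, LRBA, NINJ1, PRDM7 and PRTG had 4 each. NCKAP5, UBASH3B and ROR1, a Wnt5a receptor, had the most gained regions, 8 each, beside 13, 13 and 8 kept ones. GPHN, the synaptic scaffold gephyrin, and the Notch coactivator MAML2 had 7 gained regions each, as did LIMCH1, NPAS3, PDE1C, SH3PXD2A and ZMIZ1. These 10 genes are 159 to 1230 kb long, and a longer gene can hold more regions.

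At gene starts, 8875 of 15812 were acetylated in both shNTC libraries, with a region over the start or within 1 kb of it. Of these 2423 were lost (27.3%, or 15.3% of all starts). The 20 gained starts were 0.308% of the 6501 acetylated in shH2 and 0.126% of all starts. At equal length 1568 of 7778 were lost (20.2%, or 9.92% of all starts) and 122 were gained (1.88% of those acetylated in shH2 and 0.772% of all starts). Ranked by −log10 q, the 10 strongest lost starts were those of PDE6A, IER5L, TNFRSF6B, GCAT, ARRDC3, MACC1, AGAP3, MTMR11, PPP1R27 and STPG1. At all 10 the shNTC region had its summit over 1 kb away and shH2 had a region over that shNTC region, so only its edge was missing. Starts were therefore also counted by summits within 1 kb: of 8044 such starts 2174 were lost (27%), and at equal length 1362 of 6974 (19.5%). This count was chosen after these values were seen.

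By summit, the strongest lost starts belonged to genes with different tasks. CHAC1, which breaks down glutathione, had levels of 28.9 and 30.4 in the shNTC libraries and no region in shH2. PLXNA3, a plexin receptor for class 3 semaphorins, had 31.1 and 28.2. ASNS, asparagine synthetase, had 29.1 and 28, and IARS1, isoleucyl-tRNA synthetase, had 31.3 and 28. EPHB2, an ephrin receptor, had 26.7 and 40.2, the widest spread between replicates of the 10. RIOK2, a kinase of ribosome assembly, had 26.3 and 25.6. DCAF15, a ubiquitin ligase receptor, shares 1 summit with its neighbour PODNL1 (26.7 and 25.2). IKZF4, an Ikaros-family factor, had 27.3 and 24.2 and USF3 had 26.3 and 23.6. The lowest level that shH2 lists anywhere is 3.94, and a weaker remaining signal at these starts was not detectable at this depth. All 10 starts were acetylated and open in A375-GFP. Of the 1946 starts with levels of at least 20 in both shNTC libraries, 1907 were acetylated and 1944 open there.

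**Figure D3:**
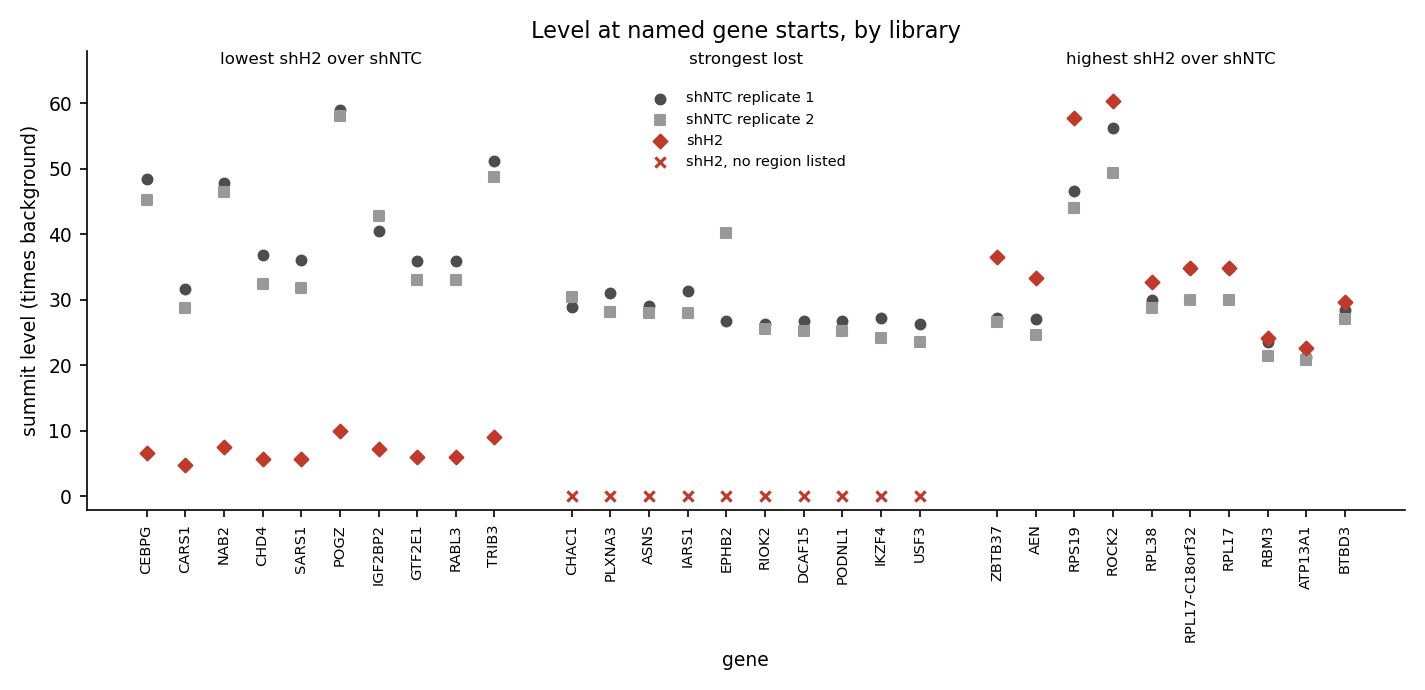
Summit level (y axis, times the genome-wide background) at named gene starts (x axis) in shNTC replicate 1 (circles), replicate 2 (squares) and shH2 (diamonds); crosses at 0 mark starts with no shH2 region listed. At the 10 starts on the left shH2 lies between 4.84 and 9.99 and the shNTC libraries between 28.8 and 59.0, and at the 10 on the right shH2 lies at or above the shNTC libraries, except at RPL17 and its readthrough gene, where replicate 1 reaches 34.9 and shH2 34.8.

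Levels could be compared at the 5771 starts with a summit in all 3 libraries. The log2 level in shH2 over shNTC had a median of -0.81 (quartiles -1.13 and -0.50), with shH2 below both libraries at 5327 starts and above both at 161. Among the 1883 of these with levels of at least 20 in both shNTC libraries the median was -1.06, the SD over starts 0.45, and the SD of the replicate ratio 0.15. The level is that of the strongest summit within 1 kb. At 171 of the 5771 starts a region that comes within 1 kb has a stronger summit farther away in at least 1 library, and with those summits the median was again -0.81. The values below are differences from shNTC on the log2 scale, to be read beside that median.

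The lowest of these 1883 was CEBPG, a C/EBP-family transcription factor, with levels of 48.4 and 45.2 in shNTC and 6.66 in shH2, a log2 difference of -2.81. CARS1, cysteinyl-tRNA synthetase, went from 31.7 and 28.8 to 4.84 (-2.64). NAB2, a corepressor of EGR factors, had 47.8 and 46.4 against 7.57 (-2.64), though shH2 reached 19.4 at a summit over 1 kb from that start. SARS1, seryl-tRNA synthetase, had 36.1 and 31.8 against 5.75 (-2.56), and CHD4, the ATPase of the NuRD complex, had 36.9 and 32.4 against 5.75 (-2.59). In each of these 5 the shH2 value lay far below replicates that were close to each other. POGZ, a heterochromatin-associated zinc finger protein, had 59.0 and 58.0 against 9.99 (-2.55). IGF2BP2, an mRNA-binding protein, had 40.5 and 42.8 against 7.27 (-2.52), with 12.1 at a summit farther away. TRIB3, a stress-induced pseudokinase, had 51.2 and 48.8 against 9.08 (-2.46). GTF2E1, a subunit of the general factor TFIIE, and RABL3 share 1 divergent start, which had 35.9 and 33.0 against 6.06 (-2.51). These shH2 values rest on 16 to 33 fragments.

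At the other end, ZBTB37, a zinc finger gene, had 27.3 and 26.6 in shNTC and 36.6 in shH2, a log2 difference of 0.44. AEN, a nuclease induced by p53, had 27.1 and 24.6 against 33.3 (0.37). RPS19 had 46.6 and 44.0 against 57.8 (0.35), and ROCK2, a kinase of the actin cytoskeleton, had 56.2 and 49.4 against 60.3 (0.19). RPL38 had 29.9 and 28.8 against 32.7 (0.16), and RPL17, with shH2 at 34.8 and replicate 1 at 34.9, differed by 0.11 from the mean of both. RBM3, a cold-induced RNA-binding protein, ATP13A1 and BTBD3 had differences of 0.10 to 0.11. Of the 1883 starts 8 stood above both shNTC libraries, all of them named here.

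**Figure D4:**
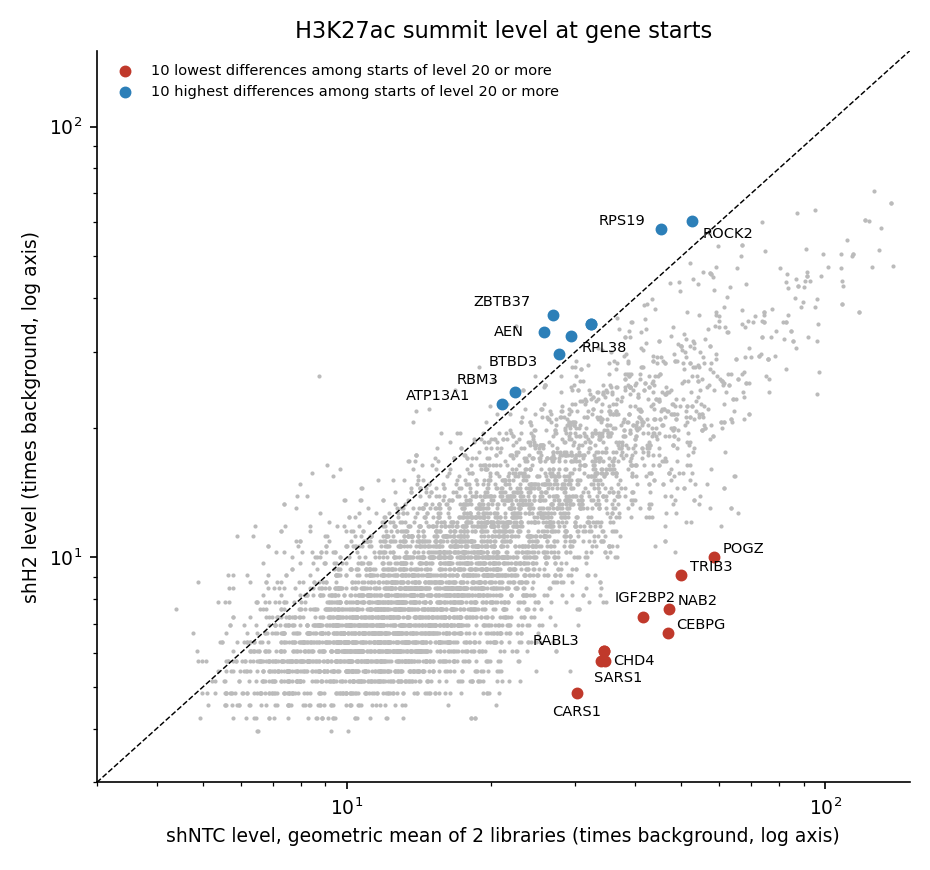
Summit level at 5771 gene starts, shNTC geometric mean on the x axis and shH2 on the y axis, both on log axes in times background; the dashed line marks equality, and coloured points are the 10 lowest and 10 highest differences among starts with levels of at least 20 in both shNTC libraries. Most points lie under the line, 5327 of 5771 with shH2 below both shNTC libraries, and CEBPG lies farthest below it among those of level 20 or more.

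Starts with and without HOXD13-HA had overlapping shares lost. Of acetylated starts with a HOXD13-HA region within 1 kb, 91 of 381 were lost (23.9%, 19.9 to 28.4), and of those without one 2332 of 8494 (27.5%, 26.5 to 28.4). The median log2 difference was -0.87 at 245 starts with it and -0.80 at 5526 without. Starts that were not open in A375-GFP were lost at 120 of 157 (76.4%), open ones at 2303 of 8718 (26.4%). The former were also weaker, with median shNTC levels of 9.38 and 9.7 against 17.5 and 15.8, and the part of strength in the contrast was not tested.

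Gained starts were few and weak. By summit there were 19 as deposited, with levels of 4.54 to 8.78 from 15 to 29 fragments. LYPD1 had the highest level (8.78), followed by MYO1G, an unconventional myosin (8.18), and MMS22L, which repairs stalled replication forks, and EN2, a homeobox factor (7.57 each). TYMS, thymidylate synthase, had 6.96 and MYBL2, a cell cycle transcription factor, 6.36. At equal length the strongest by −log10 q were GMNN, OR14A2, ANXA3, ACSM6, CNN2, FANCA, PLK4, TMEM201, CENATAC and CENPU. Of these only ACSM6 also counted as gained as deposited. At each of the others at least 1 full shNTC list held a region over the start or within 1 kb of it. Those shNTC regions were below the strength that equal length keeps.

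The gene lists are read against all starts, and against strength, since starts with a lower shNTC level under 5 were lost at 88.4%, those from 5 to 10 at 55.5%, from 10 to 20 at 14.1% and of 20 or more at 1.8%. The background for acetylated starts lost is 27.3%. Angiogenesis ligands and receptors lost 6 of 8 acetylated starts: VEGFB, VEGFC and FGF2, which are growth factors of vessels, the receptor TIE1, ADM and ANGPTL4. VEGFC, the lymphatic growth factor, had levels of 13.9 and 12.6 in shNTC and no region in shH2. HIF1A, the hypoxia factor, had 34.7 and 26.6 against 14.8. THBS1, a thrombospondin that inhibits vessels, had 10.6 and 9.79 against 11.5, above both. The list's 7 starts with summits had a median lower level of 6.59, against 12.6 over all starts. It lost 3 of 5 by summit at equal length. Semaphorins and plexins lost 4 of 5 (PLXNA1, PLXNA3, SEMA3D and SEMA3E). PLXND1, the endothelial receptor, kept its start, with 10.2 and 6.19 against 7.27. Their median lower level was 7.77, and PLXNA3 was the only one of them from a level of 20 or more.

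Immune lists ran from 1 of 5 to 4 of 7 starts lost. Checkpoints and suppressive cytokines lost 4 of 9 starts. CD274, which encodes PD-L1, had 11.4 and 9.99 in shNTC and no region in shH2, also at equal length. VSIR (4.98 and 4.2) and SIGLEC15 (6.78 and 5.8) were weak, and IL10 had a region but no summit within 1 kb. CD276, NECTIN2 and TGFB1 kept their starts at 8.18, 5.75 and 4.54 in shH2, against 35.7 and 24.4, 22.7 and 17.4, and 13.9 and 10.4 in shNTC, each below both. In antigen presentation 1 of 5 was lost, TAPBP (13.6 and 8.99), the peptide-loading chaperone tapasin, which lies in the MHC. B2M, the light chain of class I molecules, had 19.1 and 15.8 against 5.45 and PSMB10 of the immunoproteasome 35.1 and 31.4 against 10.6. The MHC, from 28 to 34 Mb of chromosome 6, holds few regions in these lists (1.09 to 2.14% of that chromosome), so a missing region there, that of TAPBP included, is not read as a loss, and outside it the list lost no start. The adenosine pathway lost 3 of 6, among them NT5E, the ectoenzyme CD73 that makes adenosine, with 8.57 and 7.99. Chemokines and cytokines lost 4 of 7 (CXCL3, CXCL8, IL1A and IL1B), by summit 2 of 5 (CXCL3 and IL1A), while CXCL1 and CXCL2 kept theirs at 8.78 and 6.96, against 13.2 and 11.8, and 12.2 and 11.2. Interferon response genes lost 4 of 10. IRF9 (16.9 and 17.8) and IRF1 (15.1 and 13.6), both interferon signalling factors, were lost at equal length too, with RIGI and OAS1.

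**Figure D5:**
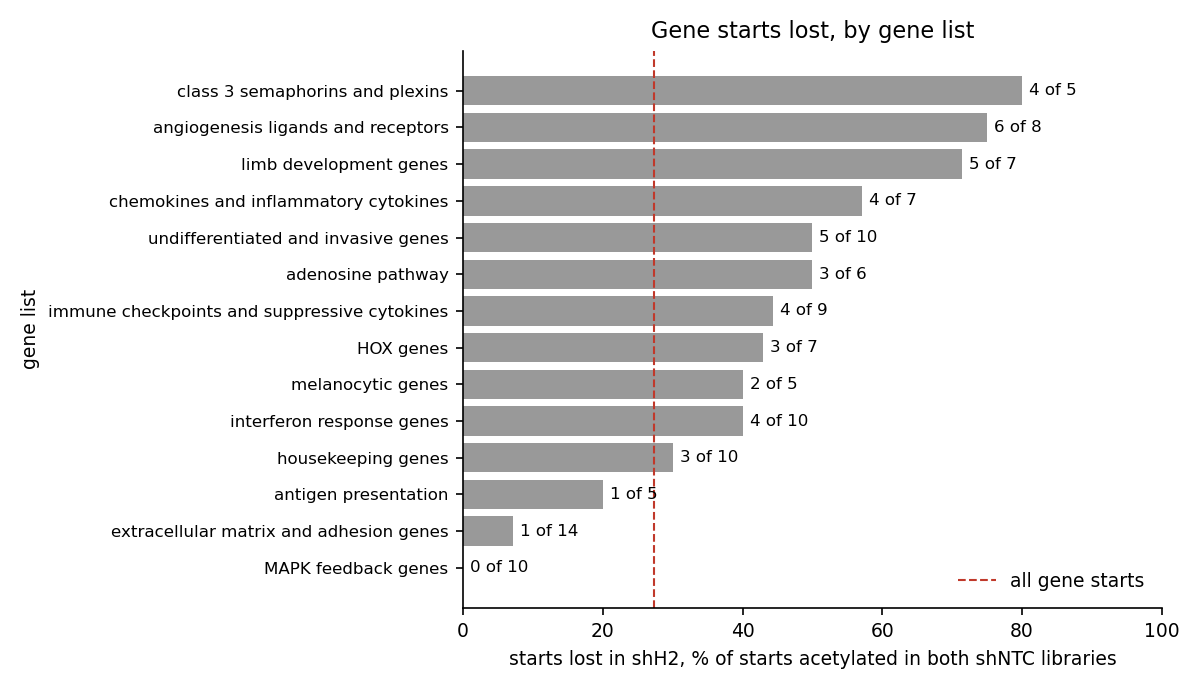
Share of acetylated gene starts lost in shH2 (x axis, %) for gene lists with at least 5 acetylated starts (y axis), as deposited, with counts beside the bars; the dashed line is all gene starts. Shares run from 0 of 10 for MAPK feedback genes to 4 of 5 for class 3 semaphorins and plexins, against 27.3% for all starts.

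Lists of cell state ran from 5 of 7 to 0 of 10 starts lost. Limb development genes, the field of HOXD13, lost 5 of 7 starts, ACVR1, EPHA7, MEIS1, PRRX1 and RUNX2, with shNTC levels of 7.39 to 9.96, and the same 5 at equal length. MSX1, another limb homeobox gene, kept its start (8.17 and 6.99 against 5.15). In the HOX list 3 of 7 were lost: HOXD8 (12.4 and 10.6), HOXD1 (6.58 and 6.39) and HOXA6, which had no summit there in replicate 2. Undifferentiated and invasive genes lost 5 of 10, among them WNT5A (11.4 and 7.19), ZEB1 (12.2 and 9.59), PDGFRB (7.37 and 7.59) and EGFR (6.78 and 5.6). YAP1, the Hippo pathway coactivator, kept 16.4 against 40.1 and 38.4. Melanocytic genes lost 2 of 5, MITF, the lineage factor (5.98 and 4.8), and EDNRB (8.57 and 7.19), and PAX3 had 15.7 and 14.2 against 6.36. Only 1 start per gene was used, that of MITF at 69739464 of chromosome 3, and other promoters of MITF were not examined. MAPK feedback genes lost 0 of 10, and their 6 with summits in all libraries were all lower in shH2, with a median of -1.28, beside 1855 of 1883 and -1.06 among all starts of level 20 or more. Their starts were strong: SPRY2, a Ras pathway inhibitor, had 62.6 and 54.8 against 24.5, DUSP6, the ERK phosphatase, 49.2 and 47.6 against 22.4 (26.6 at a summit farther away), and FOS 55.2 and 59.6 against 18.8. Matrix and adhesion genes lost 1 of 14, COL6A2 (8.97 and 10.2). Housekeeping genes lost 3 of 10 (GUSB, HPRT1 and PGK1), near the background. GUSB had 21.1 and 19.0 and no shH2 region.

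Farther from starts, 79.7% of all genes had a lost and 9.39% a gained region within 50 kb. Antigen presentation had a lost region at 7 of 19 genes, and only these 7 had any shared region within 50 kb. Its regions were lost at 58.6%, against 54.3% for all genes. Angiogenesis genes had a lost region at 23 of 25 and a gained one at 6 of 25, and semaphorins and plexins at 12 of 12 and 4 of 12. Their regions within 50 kb were lost at 51.7 and 50.7%, against 54.3% for all genes. At equal length, where 55.8% of all genes had a lost and 25.1% a gained region, the semaphorin list had 9 and 6 of 12 and the matrix list 18 and 12 of 24. The strongest lost region by SEMA3A, at 84111342 to 84113996 of chromosome 7 within the gene, had levels of 21.9 and 24.2, and that by SEMA3D 23.1 and 17.6. THBS2 had one of 17.9 and 14.2 at 1320 bp from the gene, and IL11 one of 18.5 and 18.0 at 38229 bp. Gained regions at equal length were strongest within NRP1, the coreceptor of VEGF and semaphorins (13.9 in shH2, 6 gained regions), within TGFB2 (13.9), by COL1A1 (10.6), by FGF2 (10.3) and by PLXND1 (10.3). Of these only the TGFB2 region also counted as gained as deposited. As deposited NRP1 had 2 gained regions, the strongest with a level of 5.45. TGFB2 also held a lost region, with levels of 14.1 and 14.2.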

How the data were processed

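H3K27ac regions of 3 A375 libraries were used, with 6 further lists of other A375 libraries and melanoma lines for overlap. Per the submitters' processing notes the authors used Trim Galore, Bowtie2, SAMtools, MACS2 and deepTools with hg38, without versions or settings. Each deposited list gives a fold, the ratio of summit pileup to local background, −log10 p and −log10 q from the authors' caller, and a score, the whole part of 10 times −log10 q for nearly every region. The caller defines fold and p from the pileup and the background, so the whole number of fragments and the background were solved for each region (tolerance 0.02 in −log10 p) and tested on simulated data. Overlap meant at least 1 bp. Genes were the 19974 protein-coding genes of RefSeq GRCh38.p14, of which 15812 had a start in the promoter table; the others entered with both gene ends for the place of regions. Computation used Python 3.11.15, numpy 2.4.6, pandas 2.3.3, scipy 1.17.1 and matplotlib 3.10.9.

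The members, the 19 gene lists (all genes matched) and the rules were chosen with earlier results of these data known. Genes were named by fixed rules: the 10 strongest lost and gained regions and starts, the 10 genes with most lost or gained regions, and up to 4 genes of each list; some genes that these rules name are not reported here. Summit-based starts, levels at starts, HOXD13-HA at starts, the 500-bp windows and 3 further gene groups were added after the values were seen. So were the searches for letters in promoters. No test was run. p-values would measure only the spread between these samples, which may be technical.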

Additional observations from a re-analysis of the deposited data

How the results depend on the processing

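The counts and overlaps were recomputed with one choice changed at a time, except that summit windows were combined with equal length. Levels at starts had 1 alternative, a stronger summit farther away, given beside them. Lost regions numbered 34096 as deposited, 10677 at equal length, 10749 at equal length by fold, 283 at equal covered length, 15428 with −log10 q of at least 10 and 12218 with 500-bp summit windows at equal length. Gained regions numbered 1915, 5313, 5438, 25401, 552 and 15222 in the same order. Requiring overlap of 50% of the region, joining regions within 1 kb and leaving out the MHC moved both by less than 1.5 times. The lost share moved more with 50% overlap, to 76.0% of 57072 shared regions, against 52.2% as deposited. Using 1 shNTC library gave 47676 (without replicate 1) to 53210 (without replicate 2) lost and 2464 to 2843 gained. Lost minus kept near a gene start was -9.54 percentage points, -3.7 at equal length, -0.883 with 50% overlap, -8.1 within 1000 bp, -7.01 within 5000 bp, and reversed to 0.577 with −log10 q of at least 10. Leaving out a replicate gave -10.6 to -10.4. For ATAC the difference was -39.9, then -19.4 at equal length, -6.63 with the stricter q and -25.0 with 50% overlap (-49.1 to -47.6 leaving out a replicate). For A375-GFP K27ac it was -29.7, -26.1, -11.3 and -19.7 (-35.0 to -33.6), and for HOXD13-HA -8.9, -7.1, -6.02 and -7.51 (-9.61 to -9.4). Lost starts numbered 2423, 1568 at equal length and 3657 with the stricter q; gained starts 20, 122 at equal length, and 25 (without replicate 2) to 44 (without replicate 1). Genes with a gained region within 50 kb numbered 1876, 5018 at equal length, 561 with the stricter q, 972 within 10 kb, 2922 within 100 kb, and 2415 (without replicate 2) to 2844 (without replicate 1). Fewer regions tested account for part of this by construction; otherwise the cause was not tested. No paired analysis was possible because shH2 has 1 library and only shNTC carries replicate numbers.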

Other observations

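A further 3 gene groups were put together after the levels at the named starts were seen and are given with no test. The cytosolic aminoacyl-tRNA synthetases, which load tRNAs, had 16 starts in the promoter table, all acetylated in both shNTC libraries. By summit IARS1 and NARS1 were lost, and all 13 with a summit in each library stood below both shNTC libraries, as did 5327 of all 5771 starts, with a median log2 difference of -1.65 (from -2.64 to -0.38) against -0.81 for all starts and -1.06 for starts of level 20 or more. AARS1 had 60.2 and 54.6 in shNTC and 13.0 in shH2, WARS1 49.6 and 43.2 against 10.9, and MARS1 30.5 and 30.2 against 6.96. QARS1 (14.5 and 13.8 against 10.9) and RARS1 (11.2 and 8.19 against 7.27) moved least. KARS1 had no summit within 1 kb in replicate 1, and its strongest regions had 25.9 and 24.2 against 9.08. The letters TGATGNAA were in 6 of the 16 promoters (37.5%, 18.5 to 61.4), against 2.54% of all. The synthetase group includes 3 of the starts that prompted it, and the letters too were searched after those starts were seen.

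Amino acid response genes, a list of 29 genes known to answer to amino acid shortage, of which 23 had a start and which includes CHAC1, ASNS, CEBPG and TRIB3 named above, lost 7 of 22 (31.8%, 16.4 to 52.7), near the 27.3% of all starts, and by summit 5 of 18 (27.8%). The 12 with levels in all libraries were all below both shNTC libraries, as were 5327 of all 5771 starts and 1855 of 1883 of level 20 or more. Their median was -1.88, against -0.81 for all starts and -1.06 for starts of level 20 or more. Not all 12 were that strong: ALDH18A1, PCK2 and SLC7A5 were below 20 in at least 1 shNTC library. CEBPG and TRIB3, seen before the list was made, are part of this median. CEBPB had no summit within 1 kb in replicate 1 and 4.0 in replicate 2 against 16.7, while its strongest regions had 48.0 and 43.0 against 16.7. MTHFD2, of mitochondrial folate metabolism, had 69.5 and 61.7 against 12.7, DDIT4 37.3 and 31.4 against 7.87 (12.1 at a summit farther away), and SESN2 22.1 and 21.6 against 5.15. SLC7A5 (22.3 and 16.6 against 14.8) and ATF5 (24.9 and 23.4 against 16.0) had log2 differences of -0.37 and -0.59, smaller than the median of all starts. Of 23 promoters 4 held TGATGNAA (17.4%, 6.98 to 37.1). Ribosomal protein genes lay at the other end by level, with a median of -0.45 against -0.81 for all starts. None of 59 acetylated starts was lost, but 47 of these had levels of at least 20 in both shNTC libraries. Of all starts that strong, 1.8% were lost. Of the 59, 47 stood below and 6 above both shNTC libraries, beside 5327 and 161 of all 5771 starts. RPLP0 had 13.7 and 13.8 against 20.6 within 1 kb of the start, but its strongest regions had 33.3 and 32.4 against 20.6, so its direction depends on the summit.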
